A study of Homo sapiens with 60 samples.

Results

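Enterocyte differentiation markers are genes whose transcripts mark the absorptive cells of the gut lining, and 10 of them were followed in the human colorectal cancer line HT29: VIL1, KRT20, CDX1, CDX2, FABP1, ALPI, CEACAM5, CEACAM6, ANXA13 and HNF4A. They were chosen by gene symbol with earlier results of these data known, so their counts beside shares of all genes are descriptions. Each matched 1 of the 60675 Ensembl gene identifiers in the table. All 10 are protein-coding, and 9 passed the filter on low counts, under which 17049 genes were tested. ALPI did not pass. In the GENCODE 29 annotation (GRCh38), VIL1 (ENSG00000127831) lies at chr2:218419092-218453295, KRT20 (ENSG00000171431) at chr17:40875941-40885227 and CDX2 (ENSG00000165556) at chr13:27962137-27971139. HNF4A (ENSG00000101076) lies at chr20:44355700-44434596, and CEACAM5 (ENSG00000105388) and CEACAM6 (ENSG00000086548) are neighbours at chr19:41708585-41729798 and chr19:41750977-41772208.

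Absorptive cells arise at the base of the crypt and mature as they move towards the lumen. During maturation they build a brush border of actin-filled microvilli, on which digestive enzymes and transporters sit, and the homeobox factors CDX1 and CDX2 and the nuclear receptor HNF4A are known to switch on many of the genes used there. HT29 is a tumour line that grows largely undifferentiated in standard medium and can be driven towards absorptive or mucus-secreting cells by changes in culture.

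Cells were treated for 24 h with a hot-water extract of 1 of 7 herbal medicines or with vehicle, labelled as DMSO at 0.1% on the samples. The series' design text gives another DMSO percentage for its vehicle, and which applied here was not settled; whether extract-treated cells also received DMSO is not in the labels. Menthae Herba and Saposhnikoviae Radix are single herbs. The multi-herb prescriptions are Okbyeongpung-san, Saengmaek-san, Soyo-san, Soshiho-tang and Guibi-tang. Each was given at a high, a medium and a low dose, labelled 500, 100 and 20 µg/mL. Vehicle and 18 extract groups had 3 replicates each, which makes 57 libraries in 19 groups, and Soshiho-tang had 1 library per dose. The labels do not say that replicates were separate cultures, so a p-value here reflects only how far these libraries spread, possibly for technical reasons. All 18 comparisons with vehicle use the same 3 vehicle libraries.

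Total expected counts ran from 19.5 to 41.9 (in units of 1e+06) per library, with a median of 29.2. The first principal component, 12.8% of the variance, changed sign at 1 point of the library numbering, with 31 libraries before it (the earlier part) and 29 after it (the later part). Vehicle, Menthae Herba and Saposhnikoviae Radix lay wholly in the earlier part and Soyo-san, Okbyeongpung-san and Soshiho-tang wholly in the later part, so that for these last 3 the part and the extract cannot be told apart by design. Guibi-tang and Saengmaek-san were spread over both parts, so a model term for the part takes its size from them alone. The parts were set from these same expression values, so tests between them describe the split. Mitochondrial genes took 12.8% to 13.5% of the counts in vehicle and 9.74% to 13.9% in treated libraries.

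The label was checked against marker lists. Like the markers, these lists were chosen with earlier results of these data known, so counts from them here and below are descriptions. All 12 genes of an epithelial identity list, among them EPCAM and CDH1, had a median above 1 CPM (counts per 1e+06 scaled counts of a library). Of 12 markers of non-epithelial cells, 3 did, and their summed level ran from 8.07 to 14.1 CPM. Their vehicle means were 6.84 CPM for CD68, 2.07 for COL1A1, 1.14 for PECAM1, 1.00 for ACTA2 and 0.829 for LUM. The other 7, with PTPRC, CD3E, COL3A1 and DCN among them, had vehicle means from 0 to 0.135 CPM. Of 28 genes for digestive enzymes and nutrient uptake, 4 had a median above 1 CPM and 9 were at 0 in more than 50% of the libraries, SLC15A1 and APOA4 among them. The brush border list had 14 of 19 genes above 1 CPM, the colonocyte list 13 of 24 and the list of intestinal transcription factors 18 of 26.

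Upstream sequences were read from RefSeq (GRCh38.p14) for 7 of the 10 genes, as the 250 bases before each start. KRT20 and CEACAM6 are shown because they rose in high-dose groups, and CEACAM5 because it is the related neighbour of CEACAM6. Capitals in KRT20 (chr17:40885243-40885492, minus strand) mark TTTAT on either strand, the core bound by CDX factors. Capitals in CEACAM5 (chr19:41708376-41708584, plus strand) and CEACAM6 (chr19:41755280-41755420, plus strand) mark bases that differ between the pair or have no partner in the alignment. The CEACAM5 and CEACAM6 stretches each end where the first GENCODE 29 exon inside the window begins, and that of KRT20 is its full 250 bases. The RefSeq start used for CEACAM6 lies within the longer GENCODE gene, so its stretch is inside that gene and overlaps none of its exons.
KRT20: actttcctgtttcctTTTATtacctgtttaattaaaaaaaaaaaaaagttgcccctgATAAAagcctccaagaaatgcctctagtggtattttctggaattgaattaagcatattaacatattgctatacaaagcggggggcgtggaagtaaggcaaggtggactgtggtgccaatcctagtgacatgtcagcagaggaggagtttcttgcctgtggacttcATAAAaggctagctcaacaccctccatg
CEACAM5: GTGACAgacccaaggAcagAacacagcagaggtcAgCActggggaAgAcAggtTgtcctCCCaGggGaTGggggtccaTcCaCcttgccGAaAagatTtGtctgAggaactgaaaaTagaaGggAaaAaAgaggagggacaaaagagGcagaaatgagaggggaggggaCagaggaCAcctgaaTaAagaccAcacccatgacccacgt
CEACAM6: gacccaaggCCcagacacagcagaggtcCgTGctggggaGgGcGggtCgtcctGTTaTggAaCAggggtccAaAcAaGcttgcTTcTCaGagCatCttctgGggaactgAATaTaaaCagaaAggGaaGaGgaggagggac
KRT20 held 3 matches to TTTAT. FABP1 also held 3, CDX2 held 2, CEACAM5 and CEACAM6 held 1 each, and ALPI and both HNF4A windows held 0. The same motif was in 32.7% of all 35116 RefSeq windows of this length. GTTAAT, a core of the site bound by HNF1, was found once in KRT20, once in FABP1 and 2 times in 1 of the 2 HNF4A windows, against 6.23% of all windows. CAAAGTC, a core of HNF4 sites, was found only in ALPI among the 7 genes, against 2.91% of all windows. Motifs were searched on both strands, matches of different motifs can share bases, and a match is a description of these windows. The full 250-base windows of CEACAM5 and CEACAM6 aligned over 260 columns, of which 194 were identical (74.6%).

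Reads from related genes can be hard to assign, so the GENCODE 29 transcripts were compared in words of 100 bases. Of the CEACAM5 words, 12.6% also occurred in another gene, and of the CEACAM6 words 1.73%. In both cases that gene was AC243967.1, a model that spans the pair, whose median level was 0.215 CPM, and no word was shared between CEACAM5 and CEACAM6 themselves. None of the words of the other 8 markers occurred in another gene.

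Levels were compared between markers as CPM per kilobase of exon. The length used is that of all annotated exons of a gene together, 6920 bases for VIL1 and 2470 for FABP1. The transcript expressed can be shorter, so the order of markers holds for this length only. KRT20, the keratin of mature surface cells, was highest, at 120 in vehicle and from 118 to 139 over the 19 group means. VIL1, which bundles the actin of microvilli, followed at 23.3 (group means 19.8 to 24.0). HNF4A at 12.9 (11.6 to 13.4) and CEACAM6, a cell-surface adhesion protein, at 11.9 (11.7 to 13.8) overlapped in range and have no order. ANXA13, an annexin of intestinal epithelium that binds membranes, stood at 4.23 (2.72 to 4.55) and CEACAM5, the carcinoembryonic antigen, at 2.17 (1.95 to 2.51). CDX2 stood at 1.03 (0.785 to 1.08). CDX1 at 0.547 (0.357 to 0.608) and FABP1, a fatty acid carrier, at 0.392 (0.349 to 0.546) overlapped.

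ALPI, the intestinal alkaline phosphatase of the brush border, had 14 counts in all 60 libraries together. It was at 0 in 47 of them and reached 2 counts at most, so no comparison was made.

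**Figure D1:**
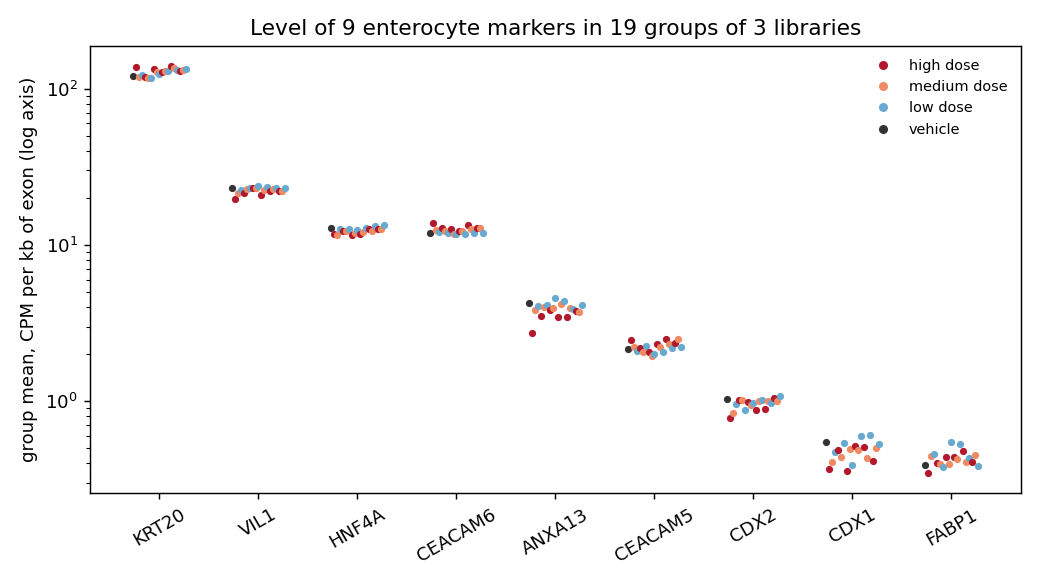
Group means of 9 markers in CPM per kilobase of all annotated exons on a log axis, 1 point per group of 3 libraries, coloured by dose. KRT20 lies above 100 in all groups, CDX1 and FABP1 lie below 1, and the lowest ANXA13 point, 2.72, is Menthae Herba at the high dose.

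The spread within groups set what could be seen. The median coefficient of variation within groups was 2.46% for VIL1, 2.69% for HNF4A, 3.32% for KRT20, 4.06% for ANXA13 and 5.14% for CEACAM6. It was 7.57% for CEACAM5, 8.41% for CDX2, 13.0% for FABP1 and 15.3% for CDX1. CDX1 and FABP1 had only 10 to 40 and 15 to 50 counts per library. In the test of any difference among the 19 groups, 5 of the 9 markers passed (ANXA13, VIL1, HNF4A, KRT20 and CEACAM5), where 24.6% of all genes did (edgeR, adjusted p under 0.05). With a term for the part of the numbering, CEACAM5 no longer passed (adjusted p 0.109).

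Menthae Herba, dried mint herb, moved the largest number of markers. At the high dose 4 fell (ANXA13, VIL1, CDX2 and HNF4A) and 2 rose (KRT20 and CEACAM6), where 3.98% of all genes fell and 4.59% rose. The median change of the 9 markers was -0.17 on the log2 scale, beside 0.00 for all genes (-0.0041). In bulk samples, fewer cells of a type and less RNA per cell cannot be told apart.

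ANXA13 was measured at 15.8, 17.0 and 15.5 CPM in vehicle and at 10.5, 10.1 and 10.3 CPM with Menthae Herba at the high dose. The 3 treated libraries lay below those of the other 18 replicated groups. The level was 35.8% lower, a log2 change of -0.64 ± 0.07 (SE, n = 3 against 3, edgeR adjusted p 1.75e-09). Without any 1 of the 6 libraries and in every other alternative the log2 change stayed between -0.67 and -0.60 and passed the test.

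VIL1 was measured at 164, 161 and 159 CPM in vehicle and 139, 138 and 134 CPM with treatment. The groups did not overlap, and the decrease of 0.23 was kept in all 13 alternatives (log2 change -0.23 ± 0.04, SE, edgeR adjusted p 4.08e-05). Other genes of the brush border were read beside it. Of 16 tested genes of the brush border list, 5 fell and 0 rose, with a median change of -0.09 on the log2 scale, beside 0.00 for all genes. By edgeR the scaffold gene PDZK1 fell (-0.40, adjusted p 2.61e-04), as did the tip-link genes USH1C (-0.25, adjusted p 3.99e-04), MYO7B (-0.49, adjusted p 0.0257) and ANKS4B (-0.20, adjusted p 0.0400).

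Among the transcription factors, CDX2 was measured at 4.23, 4.58 and 3.91 CPM in vehicle and 3.33, 2.93 and 3.45 CPM with treatment. The ranges did not overlap, and the log2 change was -0.39 ± 0.12 (SE, edgeR adjusted p 0.0342). The call ended without vehicle replicate 1 (adjusted p 0.0793) or 2 (0.155), without treated replicate 1 (0.0704) or 2 (0.178), and with no filter on low counts (0.0769). HNF4A was measured at 96.9, 89.9 and 96.6 CPM in vehicle and 86.8, 86.9 and 82.9 CPM with treatment. Its log2 change was -0.14 ± 0.04 (SE, edgeR adjusted p 0.0181), and the call ended without vehicle replicate 1 (adjusted p 0.0969) or 3 (0.0807), without treated replicate 3 (0.0992) and with no filter on low counts (0.189).

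CDX1, the other homeobox factor, was measured at 0.941, 0.995 and 0.948 CPM in vehicle and 0.853, 0.464 and 0.610 CPM with treatment. Those treated libraries all lay below vehicle, but the test was not passed (log2 change -0.58, 95% interval -1.06 to -0.10, edgeR adjusted p 0.128). Of 21 tested partners in a list of intestinal transcription factors, 7 fell and 0 rose, with a median of -0.13. FOXA2 (-0.49, edgeR adjusted p 3.79e-04), the Wnt effector TCF7L2 (-0.20, 0.0164), KLF4 (-0.29, 0.0177) and the corepressor CBFA2T2 (-0.18, 0.0182) were among them.

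KRT20 went the other way. It was measured at 219, 224 and 225 CPM in vehicle and at 251, 260 and 253 CPM with treatment, with no overlap. The log2 change was 0.19 ± 0.06 (SE, edgeR adjusted p 0.0374), and the call ended when any 1 of the 6 libraries was left out: without vehicle replicates 1, 2 and 3 in turn the adjusted p was 0.121, 0.0844 and 0.0775, and without treated replicates 1, 2 and 3 it was 0.0725, 0.137 and 0.0783.

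CEACAM6 was measured at 34.9, 38.0 and 36.5 CPM in vehicle and between 41.6 and 42.6 CPM in the treated libraries (mean 42.1 ± 0.531, SD, n = 3). All 3 treated libraries lay above vehicle (log2 change 0.21 ± 0.06, SE, edgeR adjusted p 0.0364). The call ended without vehicle replicate 1 (adjusted p 0.168) or 3 (0.0920) and without treated replicate 1 (0.0888), 2 (0.0816) or 3 (0.106). CEACAM5 was measured at 6.89, 7.38 and 7.55 CPM in vehicle and 8.50, 7.86 and 8.39 CPM with treatment. It did not pass (0.18, 95% interval -0.01 to 0.37, edgeR adjusted p 0.253), and neither did FABP1 (-0.17, 95% interval -0.60 to 0.25, adjusted p 0.702).

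Counted together, 6 of the 9 passed with all libraries, and 2 or 3 passed without vehicle replicate 1 (2) or 3 (3) or without treated replicate 1 (3), 2 (3) or 3 (3). ANXA13 and VIL1 were kept in each. Other epithelial lineages moved in the same libraries. Of 10 tested goblet cell genes 6 fell and 0 rose, and their summed level ran from 398 to 404 CPM with treatment against 503 to 527 CPM in vehicle. The mucin MUC2 (-0.76, edgeR adjusted p 9.06e-04) and the secretory factor CREB3L1 (-0.45, 8.40e-04) were among them. Of 13 tested CEACAM and annexin relatives, ANXA10 (0.34) and ANXA1 (0.24) rose and ANXA9 (-0.44) and ANXA11 (-0.13) fell. Of the epithelial identity list 3 of 12 fell and 1 rose, of the colonocyte list 4 of 19 fell, of the Paneth list 1 of 3 and of the crypt base list 1 of 9. In the lists for digestive enzymes (9 tested), enteroendocrine (3), tuft (4) and non-epithelial cells (5), 0 passed by edgeR. Mean mitochondrial share was 11.6% with treatment and 13.0% in vehicle. The part of any of these in the marker changes was not tested.

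At the medium dose of Menthae Herba 0 of 9 markers passed edgeR's test, where 0.739% of all genes did. An unadjusted p under 0.05 was found for 4 markers, beside 2372 of all tested genes, and DESeq2 called 2 markers. Those 2 were VIL1 (-0.13, DESeq2 adjusted p 0.0255), at 143, 151 and 149 CPM, and HNF4A (-0.15, 0.0132), at 82.3, 87.8 and 85.0 CPM. Both lay wholly below vehicle. At the low dose 0 passed (0.0587% of all genes) and DESeq2 called 0. There 0 markers had an unadjusted p under 0.05, beside 1829 of all tested genes.

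**Figure D2:**
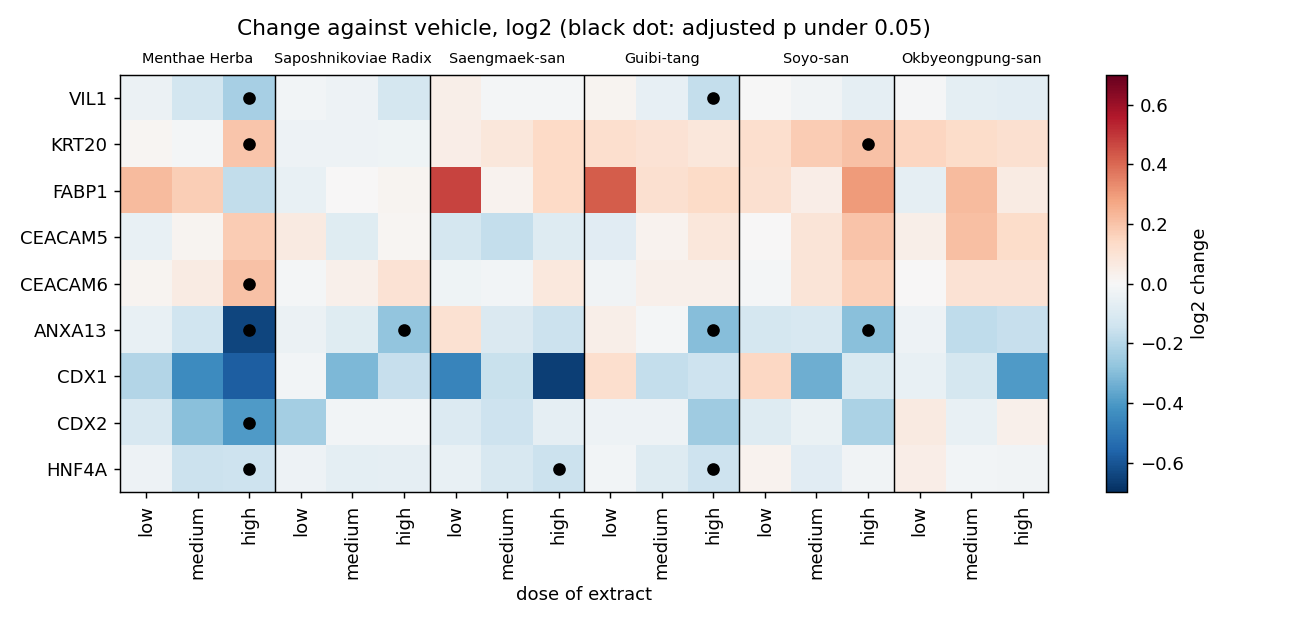
Log2 change of 9 markers against vehicle for 6 extracts at 3 doses, with colour for size and direction and a black dot where the edgeR adjusted p was under 0.05. All 13 dots lie in high-dose columns, 6 of them under Menthae Herba, and the ANXA13 row holds 4.

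Saposhnikoviae Radix, the root of a plant of the carrot family, lowered 1 marker at the high dose. ANXA13 was measured at 13.8, 11.7 and 14.3 CPM, below every vehicle library, where 0.205% of all genes fell. The log2 change was -0.27 ± 0.07 (SE, n = 3 against 3, edgeR adjusted p 0.0327). The call ended without vehicle replicate 1 (adjusted p 0.114), 2 (0.213) or 3 (0.0513) and without treated replicate 1 (0.0852) or 2 (0.363), and the count then fell to 0. VIL1, at 144, 149 and 151 CPM, did not pass (-0.12, 95% interval -0.20 to -0.04, edgeR adjusted p 0.159), and DESeq2 called it (0.0299). At the medium dose 0 passed (0.0293% of all genes) and at the low dose 0 (0.170% of all genes). In each, 0 markers had an unadjusted p under 0.05, beside 1572 and 1821 of all tested genes, and DESeq2 called 0 markers.

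Saengmaek-san at the high dose lowered HNF4A alone, where 1.89% of all genes fell. HNF4A was measured at 86.4, 82.1 and 87.0 CPM, with no overlap with vehicle (log2 change -0.15 ± 0.04, SE, edgeR adjusted p 0.0245). The call ended without vehicle replicate 1 (adjusted p 0.137) or 3 (0.0837) and without treated replicate 2 (0.173), which left 0 markers. It also ended with no filter on low counts (0.113) and in a fit on these groups alone (0.265).
CDX1, at 0.515, 0.552 and 0.817 CPM, had the largest negative log2 change of any marker there, -0.66, and did not pass (95% interval -1.16 to -0.16, edgeR adjusted p 0.111); with the earlier libraries alone it passed (-0.85, adjusted p 0.0367). Of 21 tested transcription factors 4 fell, among them SOX9 (-0.27) and FOXA2 (-0.40), and of 10 goblet genes 2 fell, with 0 rising in either list. At the medium and low doses 0 markers passed (0.416% and 0.0938% of all genes), and DESeq2 called 0 in each. In each, 1 marker had an unadjusted p under 0.05, beside 2171 and 1284 of all tested genes.

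Guibi-tang at the high dose lowered 3 markers, where 0.974% of all genes fell. ANXA13 was measured at 13.8, 12.4 and 13.3 CPM (log2 change -0.30 ± 0.07, SE, edgeR adjusted p 0.00862), VIL1 at 137, 140 and 153 CPM (-0.17 ± 0.04, adjusted p 0.00972) and HNF4A at 87.7, 82.3 and 86.4 CPM (-0.15 ± 0.04, adjusted p 0.0389). None of the 3 overlapped with vehicle, and the share of all genes without overlap was not counted. The brush border genes MYO7B (-0.57) and USH1C (-0.17) also fell, 2 of 16 tested, with 0 rising. Of 10 goblet genes REG4 (-0.27) and CREB3L1 (-0.37) fell, and of 3 Paneth genes the protease gene MMP7 rose (0.67, edgeR adjusted p 1.13e-10). Their part in the marker changes was not tested.

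Single libraries and settings decided these calls. That of ANXA13 ended without vehicle replicate 2 (edgeR adjusted p 0.0717) or treated replicate 2 (0.0888), and in a fit on these groups alone (0.0516). The call of VIL1 ended without vehicle replicate 1 (0.0637) or treated replicate 1 (0.0859) or 2 (0.0693), in a fit on these groups alone (0.115) and with no filter (0.0515). For HNF4A it ended without vehicle replicate 1 (0.198) or 3 (0.147) or treated replicate 2 (0.184) or 3 (0.0762), in a fit on these groups alone (0.179) and with no filter (0.184). Without treated replicate 2, 0 markers passed, and without vehicle replicate 1, 1 did. At the medium and low doses 0 passed (1.07% and 0.850% of all genes), and DESeq2 called 0 in each. In each, 1 marker had an unadjusted p under 0.05, beside 2660 and 2429 of all tested genes.

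Soyo-san at the high dose lowered ANXA13 and raised KRT20, where 6.43% of all genes fell and 8.03% rose. ANXA13 was measured at 12.6, 13.1 and 13.9 CPM, below every vehicle library. Its log2 change of -0.29 ± 0.07 (SE, edgeR adjusted p 0.00361) passed in all 12 alternatives, with the part term included (-0.34, adjusted p 0.00499). That term took its size from Guibi-tang and Saengmaek-san and was carried over to Soyo-san. The brush border list was mixed in these libraries: 3 of 16 tested genes fell, among them PDZK1 (-0.28) and CDH17 (-0.41), and 2 rose, EZR (0.23) and MISP (0.20). At the medium dose 1 fell and EZR (0.22) and MISP (0.18) rose. All Soyo-san libraries lay in the later part, where EZR (0.18, edgeR adjusted p 1.10e-07) and MISP (0.10, 0.00265) were also higher within groups. Part and extract cannot be told apart here. Other lineages moved as well at the high dose. Of 10 goblet genes 4 fell and 0 rose, REG4 (-0.52, edgeR adjusted p 4.06e-07), MUC2 (-0.74), CREB3L1 (-0.40) and AGR2 (-0.18), while the Paneth list's MMP7 rose (0.47) and the tuft cell factor POU2F3 fell (-0.67). Their part in the marker changes was not tested.

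KRT20 was measured at 269, 256 and 245 CPM with Soyo-san, above vehicle (0.21 ± 0.06, SE, edgeR adjusted p 0.0181). With the part term, carried over from Guibi-tang and Saengmaek-san, its change was 0.03 (adjusted p 0.823), a move of over 1.5 times that ended the call. The call also ended without vehicle replicate 1 (0.0735) or treated replicate 1 (0.130) or 2 (0.0571), which left 1 marker. VIL1 stood at 157, 153 and 152 CPM and did not pass (-0.06, edgeR adjusted p 0.294), but with the part term it did (-0.15, adjusted p 0.0104). At the medium dose 0 passed (9.87% of all genes) and DESeq2 called 0. There 1 marker had an unadjusted p under 0.05, beside 4400 of all tested genes. At the low dose 0 passed (3.93% of all genes) and DESeq2 called 0. There 0 markers had an unadjusted p under 0.05, beside 3248 of all tested genes.

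Okbyeongpung-san changed 0 of the 9 markers at any dose by edgeR, where 7.40%, 3.75% and 8.79% of all genes passed at the high, medium and low dose. At these doses 1, 3 and 1 markers had an unadjusted p under 0.05, beside 4034, 3386 and 4045 of all tested genes. DESeq2 called 0 markers at each. ANXA13 was measured at 14.9, 14.8 and 13.5 CPM at the high dose, all below vehicle (-0.16, 95% interval -0.30 to -0.02, edgeR adjusted p 0.142). VIL1, at 151, 156 and 153 CPM, passed once the part term was added (-0.16, adjusted p 0.0131, against -0.07 and 0.262 without it). That term was carried over from Guibi-tang and Saengmaek-san, since Okbyeongpung-san lay wholly in the later part. At the medium dose VIL1 likewise passed with that term (-0.15, adjusted p 0.0219). CEACAM7, a colonocyte relative of the CEACAM members at low level (0.192 to 1.34 CPM over all libraries, with a vehicle mean of 0.306), rose at every dose of 3 extracts. At the high, medium and low dose its log2 change was 1.81, 1.73 and 1.77 with Okbyeongpung-san, 1.87, 1.62 and 1.75 with Soyo-san, and 1.92, 1.65 and 1.16 with Guibi-tang. At the high dose of Okbyeongpung-san 1 of 16 brush border genes and 3 of 10 goblet genes fell, and 0 of either list rose.

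**Figure D3:**
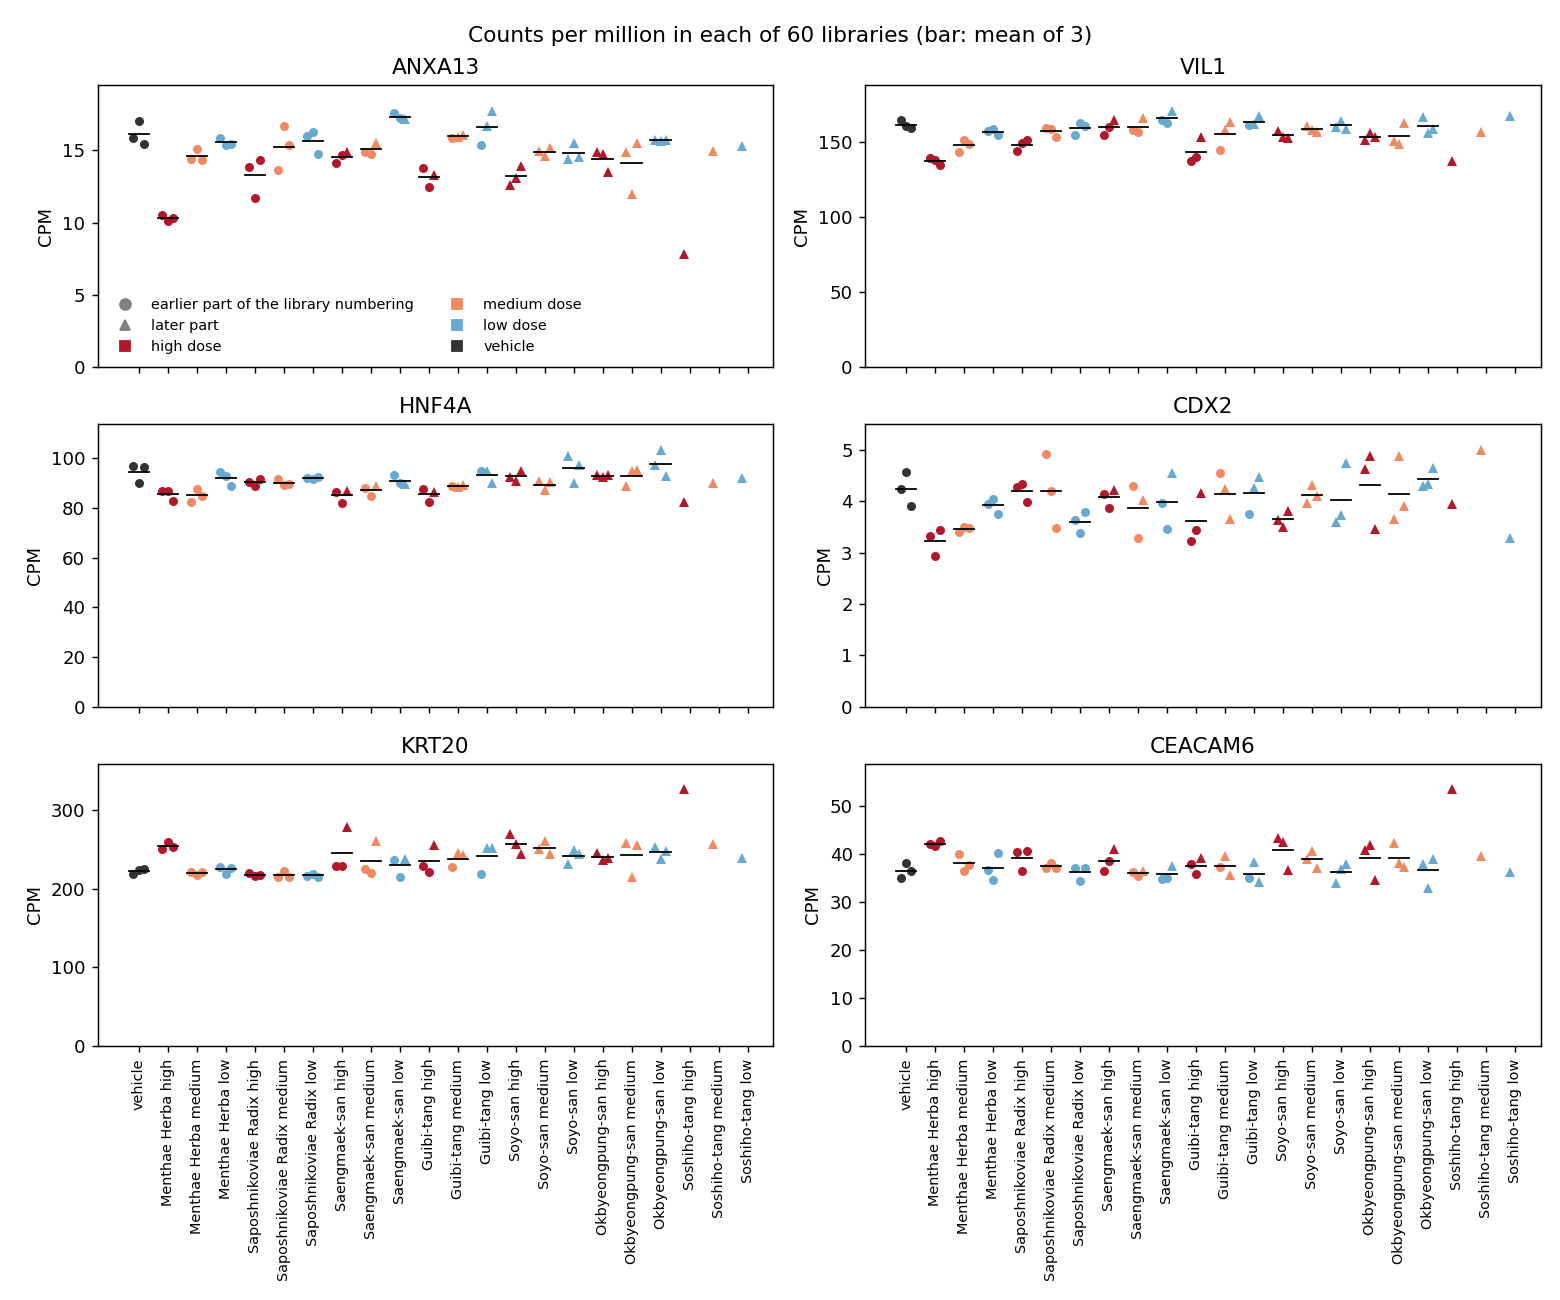
CPM of 6 markers in each of the 60 libraries, with a bar at the mean of each group of 3, colour for dose, circles for the earlier and triangles for the later part of the library numbering. ANXA13 reads 10.1 to 10.5 in Menthae Herba high against 15.5 to 17.0 in vehicle, and the triangles of KRT20 lie above most of its circles.

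The part of the library numbering moved with 2 markers. Within groups that had libraries in both parts, KRT20 was 0.18 ± 0.03 (SE, log2) higher in the later libraries (edgeR adjusted p 3.78e-07) and VIL1 0.09 ± 0.02 higher (adjusted p 6.15e-04), where 15.9% of all genes were higher. The split was set from these same data, so its p-values and that share are not an independent test. With no filter on low counts VIL1 did not pass (adjusted p 0.0557). In Saengmaek-san high, KRT20 read 229 and 229 CPM in the earlier libraries and 279 CPM in the later one. In Guibi-tang low it read 219 CPM in the earlier library and 252 and 252 CPM in the later ones. ANXA13 (0.05, adjusted p 0.386) and HNF4A (0.01, adjusted p 0.888) did not pass.

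High and low doses of the same extract were compared next, a contrast that does not use vehicle. For Menthae Herba ANXA13 fell by 0.59 (± 0.07 SE, edgeR adjusted p 2.57e-08) and VIL1 by 0.19 (± 0.04 SE, adjusted p 0.00137), where 1.23% of all genes fell. ANXA13 read 15.9, 15.3 and 15.4 CPM at the low dose and 14.4, 15.1 and 14.4 CPM at the medium dose, so that the step to 10.5, 10.1 and 10.3 CPM came between medium and high. VIL1 read 157, 158 and 154 CPM at the low dose.

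For Guibi-tang ANXA13 fell by 0.34 (± 0.07 SE, edgeR adjusted p 0.00883), from 15.4, 16.7 and 17.8 CPM, and VIL1 by 0.19 (± 0.04 SE, adjusted p 0.0108), from 161, 162 and 167 CPM, where 0.141% of all genes fell. The ANXA13 call ended without high-dose replicate 2 (adjusted p 0.160) or low-dose replicate 2 (0.0571) or 3 (0.122), and in a fit on these groups alone (0.534). The VIL1 call ended without high-dose replicate 1 (0.193) or 2 (0.134) or low-dose replicate 3 (0.0997), with no filter (0.0507) and in a fit on these groups alone (0.977). Without high-dose replicate 2 or low-dose replicate 3, 0 markers passed, and without high-dose replicate 1 or low-dose replicate 2, 1 did.

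In the other 4 extracts 0 markers passed. The share of all genes that passed was 0.0293% for Saposhnikoviae Radix, 0.0235% for Saengmaek-san, 0.129% for Soyo-san and 0.00587% for Okbyeongpung-san. By edgeR 2, 2, 2 and 0 markers had an unadjusted p under 0.05, beside 642, 1287, 1323 and 807 of all tested genes. DESeq2 called 0 markers in each. The log2 changes of ANXA13 were -0.23, -0.25, -0.17 and -0.12, in the same order.

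An average of the 6 high-minus-low contrasts, added after these values were seen, used all 36 high- and low-dose libraries. ANXA13 fell by 0.28 (± 0.03 SE, edgeR adjusted p 1.40e-10), VIL1 by 0.11 (± 0.02 SE, adjusted p 1.82e-06) and HNF4A by 0.08 (± 0.02 SE, adjusted p 7.85e-04). CEACAM6 rose by 0.12 (± 0.03 SE, adjusted p 0.00148). Of all genes 4.12% fell and 4.35% rose. ANXA13, VIL1 and HNF4A were lower at the high dose in 6 of 6 extracts and CEACAM6 higher in 6 of 6. The share of all genes with the same sign in 6 of 6 was not counted.

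Those 4 calls held in each of 10 alternatives, and without Menthae Herba ANXA13 still fell by 0.22. CEACAM5 (0.11, edgeR adjusted p 0.0774), CDX1 (-0.26, adjusted p 0.0951) and KRT20 (0.05, adjusted p 0.251) did not pass. With the part term KRT20 (adjusted p 0.0205) and CEACAM5 (0.0392) passed too. CDX1 was lower at the high dose in 6 of 6 extracts, again with no share of all genes counted. Of 16 brush border genes 5 fell and 0 rose (median -0.12), with USH1C (-0.14, adjusted p 1.48e-06) and PDZK1 (-0.17, adjusted p 1.24e-04) among them. Of 19 colonocyte genes 4 fell and 0 rose, among them SELENBP1 (-0.26). Of 10 goblet genes 6 fell and 0 rose, and of 9 tested crypt base genes 2 fell and 0 rose, so that markers of other lineages moved in the same libraries; their part in the result was not tested.

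**Figure D4:**
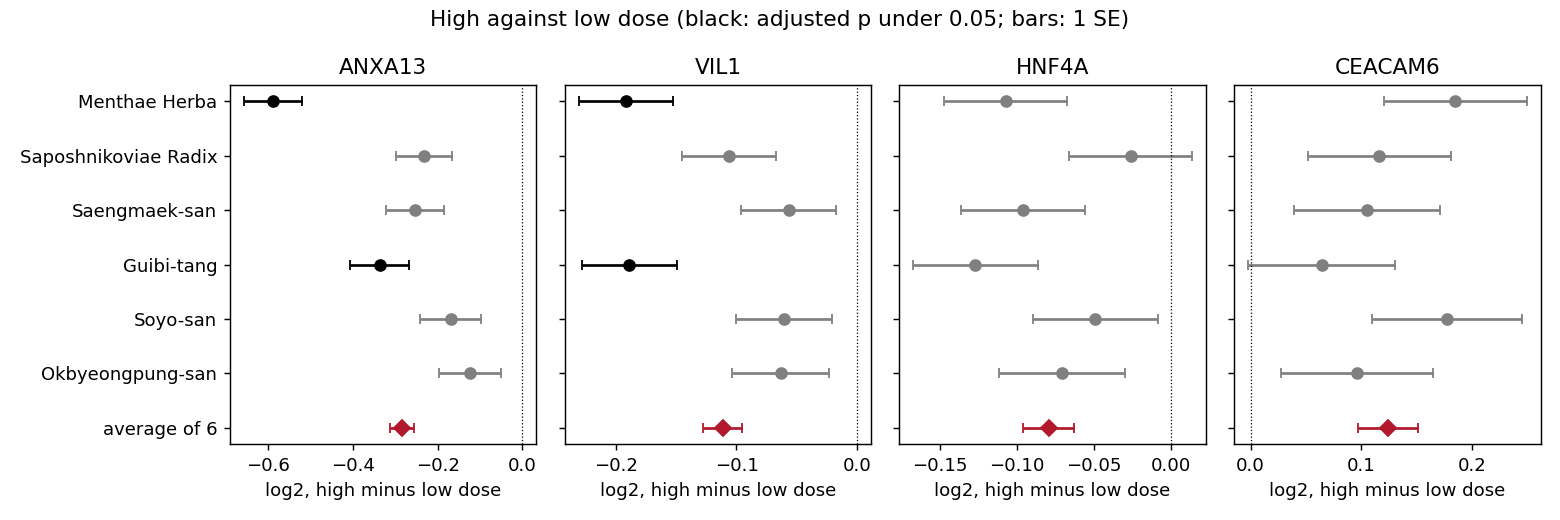
Log2 difference of high minus low dose for 4 markers in 6 extracts (points, with bars of 1 SE) and for the average of the 6 (diamond). Each ANXA13, VIL1 and HNF4A point lies below 0 and each CEACAM6 point above 0, and Menthae Herba has the lowest ANXA13 value, -0.59.

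Extracts were also compared directly at the high dose in 3 pairs. Menthae Herba gave lower ANXA13 than Saposhnikoviae Radix (-0.37 ± 0.07, SE, edgeR adjusted p 0.00119), with 10.1 to 10.5 CPM against 11.7 to 14.3 CPM, where 0.604% of all genes fell, and this held in all 13 alternatives. KRT20 was higher by 0.22 in that pair but did not pass (edgeR adjusted p 0.0513). It passed with DESeq2 size factors (0.0438), with no filter (0.00246) and by DESeq2 (0.0213). It also passed in a fit on these groups alone (edgeR adjusted p 2.26e-05) and with a replicate block (0.0336). With the part term (8.29e-04) and with the earlier libraries alone (1.14e-05) KRT20 passed too.

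In Guibi-tang against Saengmaek-san 0 markers passed by edgeR (0.370% of all genes did). An unadjusted p under 0.05 was found for 2 markers, beside 1011 of all tested genes, and DESeq2 called 1 marker, VIL1. VIL1 read 137, 140 and 153 CPM against 154, 160 and 164 CPM (-0.15, 95% interval -0.23 to -0.07, edgeR adjusted p 0.0676). By the cut-off used, this was the only pair whose same-numbered libraries deviated together. In both groups replicates 1 and 2 lay in the earlier part and replicate 3 in the later, so number and part cannot be told apart. VIL1 passed with the numbers as a block (-0.15, edgeR adjusted p 0.0488) and with the part term (adjusted p 0.00806). It also passed without Guibi-tang replicate 3, where 1 marker passed. In Soyo-san against Okbyeongpung-san 0 markers passed by edgeR (0% of all genes did) and DESeq2 called 0. In that pair 0 markers had an unadjusted p under 0.05, beside 760 of all tested genes. The interval of the ANXA13 difference there was -0.28 to 0.02, and that of VIL1 was -0.07 to 0.09.

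Across the 19 group means the markers did not form a single block. Pearson's r was 0.88 for ANXA13 with VIL1, -0.85 for ANXA13 with CEACAM6 and 0.73 for CEACAM5 with CEACAM6. HNF4A had r of 0.56 with VIL1, 0.59 with CDX2 and 0.65 with CDX1, and r for KRT20 lay between -0.38 (ANXA13) and 0.47 (CEACAM6). The groups share the parts of the library numbering and the scaling, so these are descriptions over 19 points.

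Among 10011 protein-coding genes with a mean of at least 5 CPM, the patterns most like VIL1 were those of SERPINB1 (r 0.95), USH1C (0.90) and ANXA13 itself (0.88). For ANXA13 they were the proton pump gene ATP6V1B1 (0.90), SERPINB1 (0.90) and CD24 (0.90). HNF4A was most like ERBB2 (0.91), SPPL2B (0.89) and MCF2L (0.89), and KRT20 most like TIMELESS (0.91), NSUN2 (0.91) and HMGB1 (0.90).

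Soshiho-tang had 1 library per dose, so its values have no replicate check. In the high-dose library ANXA13 read 7.82 CPM, below the range of the 57 replicated libraries (10.1 to 17.8 CPM) and 0.485 times the vehicle mean. KRT20 read 326 CPM (range 214 to 279), CEACAM6 53.4 CPM (32.9 to 43.3) and CEACAM5 11.8 CPM (6.07 to 9.57), each above every other library and 1.47, 1.46 and 1.62 times the vehicle mean. Of all tested genes 18.9% were outside the range in this library, so 4 of 9 markers are read against that share. At the medium and low doses ANXA13 read 15.0 and 15.3 CPM and KRT20 257 and 238 CPM, within the range. CDX2 at the medium dose, 5.00 CPM, was just above the highest other library, 4.92 CPM.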

How the data were processed

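RNA-seq of HT29 cells was deposited as 1 table of expected counts per Ensembl gene for 60 libraries. Per the submitters' processing notes, reads passed through FastQC 0.11.9, Trim Galore 0.6.5, STAR 2.7.3a and RSEM 1.3.3 on GRCh38 (hg38). Neither annotation release nor strand setting is stated in the sources used here. Of the values above 0, 27.7% were not whole: expected counts divide reads that match several transcripts.

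Expected counts were rounded. Gene names came from a supplied symbol table and GENCODE 29, which annotated 57055 of 60675 identifiers. The 57 libraries in 19 groups were fitted together (38 residual degrees of freedom) with edgeR 4.0.16 (R 4.3.3) after filterByExpr and TMM scaling, using a robust quasi-likelihood fit with Benjamini-Hochberg adjustment over 17049 genes and a threshold of 0.05. Comparisons numbered 27: 18 with vehicle, 6 between doses and 3 between extracts. Counts of all tested genes with an unadjusted p under 0.05 are by edgeR and out of these 17049. CPM is the count per 1e+06 scaled counts of a library. Confidence intervals are 95%. The procedure was tested on simulated data. Markers and the 12 companion lists were chosen with earlier results of these data known. From each list at most 4 genes per comparison are named, those with the smallest p. For markers called in at least 2 comparisons, the 3 protein-coding genes most correlated over group means are named.

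Alternatives were DESeq2 size factors, no filter on low counts, DESeq2 1.42.0, fits on the compared groups, a replicate block, a model term for earlier against later numbering, the earlier libraries alone, and leaving out each library. The term for earlier against later numbering took its size from Guibi-tang and Saengmaek-san alone. Same-numbered libraries were said to deviate together where all 3 correlations of their deviations from group means passed a cut-off. Only Guibi-tang against Saengmaek-san at the high dose did. There the 3 correlations were 0.144, 0.129 and 0.286, and the numbers followed the parts of the numbering in both groups. In Saengmaek-san high against low they were 0.179, 0.0412 and 0.283, of which 0.0412 did not pass.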

Additional observations from a re-analysis of the deposited data

Results flagged for a closer look

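Menthae Herba and Saposhnikoviae Radix at the same high dose differed in ANXA13: the level was lower with Menthae Herba (-0.37 on the log2 scale), by a direct edgeR test of the difference (adjusted p 0.00119). The Soshiho-tang high-dose library, outside every replicated comparison, lay outside the range of all 57 replicated libraries for 4 markers. It did so for 18.9% of all tested genes. KRT20 read 326 CPM, CEACAM5 11.8 CPM and CEACAM6 53.4 CPM, all above that range. ANXA13 read 7.82 CPM, below it. With 1 library these values carry no error.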

How the results depend on the processing

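Markers were called in 24 marker and comparison pairs. Over 276 alternative values of these, 218 kept direction and call, 58 kept direction and lost the call, and 0 reversed. The cause of the changes below was not tested.

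Leaving out each library in turn, the number of markers called ranged from 2 to 4 for Menthae Herba high against vehicle (6 with all libraries), from 0 to 1 for Menthae Herba medium (0), from 0 to 1 for Saposhnikoviae Radix high (1), from 0 to 1 for Saengmaek-san high (1), from 0 to 2 for Guibi-tang high (3), from 1 to 3 for Soyo-san high (2) and from 0 to 1 for Okbyeongpung-san medium (0). The single calls came without vehicle replicate 2 for Menthae Herba medium and without treated replicate 2 for Okbyeongpung-san medium. The range was 0 to 2 for Guibi-tang high against low (2) and 0 to 1 for Guibi-tang against Saengmaek-san (0).

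By DESeq2 the count was 2 for Menthae Herba medium, 2 for Saposhnikoviae Radix high, 2 for Menthae Herba against Saposhnikoviae Radix (1 by edgeR) and 1 for Guibi-tang against Saengmaek-san. With DESeq2 size factors it was 2 for Menthae Herba against Saposhnikoviae Radix. With no filter on low counts it was 0 for Saengmaek-san high, 1 for Guibi-tang high, 1 for Soyo-san medium (0), 1 for Guibi-tang high against low, 2 for Menthae Herba against Saposhnikoviae Radix and 1 for later against earlier libraries (2). In the order above, DESeq2 called 309, 158, 250 and 66 of all genes, and DESeq2 size factors gave 195. With no filter 760, 548, 1965, 201 and 301 genes were called, leaving aside later against earlier libraries.

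Fitted on the compared groups alone, it was 2 for Menthae Herba medium, 2 for Saposhnikoviae Radix high, 0 for Saengmaek-san high, 0 for Guibi-tang high, 1 for Soyo-san medium, 1 for Okbyeongpung-san low (0), 0 for Guibi-tang high against low and 3 for Menthae Herba against Saposhnikoviae Radix. With the part term it was 2 for Menthae Herba medium, 2 for Saposhnikoviae Radix high, 1 for Okbyeongpung-san high (0), 1 for Okbyeongpung-san medium, 2 for Menthae Herba against Saposhnikoviae Radix and 1 for Guibi-tang against Saengmaek-san. With the earlier libraries alone it was 2 for Menthae Herba medium, 2 for Saposhnikoviae Radix high, 2 for Saengmaek-san high, 5 for Menthae Herba high against low (2), 3 for Menthae Herba against Saposhnikoviae Radix and 1 for Guibi-tang against Saengmaek-san. These settings also moved the number of all genes called. In the order above, the compared groups alone gave 679, 638, 43, 206, 2317, 2239, 5 and 598 genes. The part term gave 300, 200, 401, 334, 279 and 84, and the earlier libraries alone 875, 529, 1556, 808, 407 and 69. In the main fit 126 genes passed for Menthae Herba medium. For Saposhnikoviae Radix high 50 genes rose and 35 fell there.

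With the replicate number as a block, the count was 1 for Menthae Herba medium, 1 for Soyo-san medium, 2 for Menthae Herba against Saposhnikoviae Radix and 1 for Guibi-tang against Saengmaek-san, and it moved by no more than 1.5 times in the other comparisons. Only in Guibi-tang against Saengmaek-san did all correlations of same-numbered libraries pass the cut-off, and there number and part cannot be told apart. In Saengmaek-san high against low 0.179 and 0.283 passed it and 0.0412 did not. In the other comparisons same-numbered libraries did not pass it together.

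Depth limited CDX1 and FABP1, with 10 to 40 and 15 to 50 counts per library, and ALPI could not be compared.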
